A study of Mus musculus with 2 samples.

Results

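Ifitm1, Ifitm2 and Ifitm3 are the interferon-induced transmembrane genes on mouse chromosome 7, and they are described here in donor T cells after allogeneic hematopoietic cell transplantation (allo-HCT). They are 3 of the 32285 genes in the count tables, found by symbol, with 1 entry each (ENSMUSG00000025491, ENSMUSG00000060591 and ENSMUSG00000025492). The 3 genes were chosen from their own measured values: in these same 2 libraries they were far lower at day +14 than at day +7, and they led a group of cells made up mostly of day +7 cells. Their levels by day in T cells are therefore a description, with no test.

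The study compared donor T cells at day +7 and day +14 after allo-HCT, during acute graft-versus-host disease (aGvHD). BALB/c (H-2d) recipients were lethally irradiated and given bone marrow depleted of T cells together with splenic T cells. Both came from WT donors of the C57BL/6 strain (H-2b), and no inhibitor or gene deletion was used in either library. The methods of the paper describe naive T cells for this model, while the legends of this experiment name splenic T cells only. Splenic T cells of the donor (CD45+, H2kb+, H2kd-, TCRβ+) were sorted, suspensions were pooled, and 1 library was made for each day on the Chromium system, which tags each captured RNA molecule with a unique molecular identifier (UMI). The labels put the sort of both libraries on day +7, so the day was read from the sample titles, and with 1 library a day the day and the library cannot be told apart. After the limits of the study on genes and mitochondrial UMIs per barcode, with doublets kept, 7179 of 7355 barcodes with 86745047 UMIs were kept at day +7 and 7794 of 8043 barcodes with 83808218 UMIs at day +14, and the median depth was 9210 and 8144 UMIs per cell.

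Cells were sorted into gates by fixed marker genes. The CD8 gate held 5739 cells at day +7 and 5906 at day +14, the CD4 gate 453 and 690, and the Foxp3+ gate 192 and 89. Cells with genes of neutrophils (43 and 76) or of erythroid cells (141 and 21) passed the sort as well and were kept apart. Markers that the gates did not use were found where they should be: Csf3r, Cebpe, Lyz2, Cybb and Fcnb together reached 7425 and 9308 CPM (UMIs per 1000000 UMIs of the same cells) in the neutrophil gate against 3.87 and 15.7 CPM in the CD8 gate, and Hbb-bs, Hba-a1, Gata1, Tfrc and Blvrb reached 1451 and 14600 CPM in the erythroid gate against 23.0 and 46.0 CPM. Neither gate was pure, since a UMI of a T cell receptor or CD3 gene was present in 41.9% and 63.2% of neutrophil-gate cells and in 63.8% and 42.9% of erythroid-gate cells. In the Foxp3+ gate 5 markers that its rule did not use, among them Il2ra, Ikzf2 and Ctla4, together reached 1246 and 1961 CPM. They were at 140 and 218 CPM in the CD8 gate and at 434 and 775 CPM in the CD4 gate. Cd8a or Cd8b1 was detected in 79.2% of Foxp3+ gate cells at day +7 and in 56.2% at day +14, so these were not mainly CD4 cells. The gate is called by its rule, at least 1 UMI of Foxp3. Libraries shared 20 barcodes, 17 of them among the kept cells, and leaving out those in the CD8 gate gave a day ratio of -4.94 for the summed genes, the value with them.

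IFITM proteins are small membrane proteins induced by interferons that hinder the fusion of enveloped viruses with cell membranes. IFITM1 is found largely at the cell surface, and IFITM2 and IFITM3 largely in endosomes and lysosomes. In lymphocytes IFITM1 sits in a membrane complex with the tetraspanin CD81, and in mice IFITM proteins have been studied in activated and memory T cells, in germ cells and in viral infection.

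The 3 genes lie close together. In the GRCm38 annotation Ifitm2 (chr7:140954837-140955987, minus strand, 2 exons), Ifitm1 (chr7:140967221-140969825, plus strand, up to 3 exons in a transcript) and Ifitm3 (chr7:141009586-141010770, minus strand, 2 exons) stand in that order, with Ifitm5 on one side and Ifitm6 on the other. Interferon acts on its target genes through short DNA motifs, the interferon-stimulated response element (ISRE) and the gamma-activated site (GAS). The RefSeq start regions (GRCm38.p6, the 250 bases before the start and the 50 from it on) are shown because all 3 genes were lower together at day +14, and capitals mark every match on either strand to an ISRE core, GAAANNGAAA, or a GAS, TTCNNNGAA. They cover chr7:140967826-140968125 (plus strand) for Ifitm1, chr7:140955912-140956211 (minus strand) for Ifitm2 and chr7:141010695-141010994 (minus strand) for Ifitm3, each written 5′ to 3′ along the gene.
Ifitm1: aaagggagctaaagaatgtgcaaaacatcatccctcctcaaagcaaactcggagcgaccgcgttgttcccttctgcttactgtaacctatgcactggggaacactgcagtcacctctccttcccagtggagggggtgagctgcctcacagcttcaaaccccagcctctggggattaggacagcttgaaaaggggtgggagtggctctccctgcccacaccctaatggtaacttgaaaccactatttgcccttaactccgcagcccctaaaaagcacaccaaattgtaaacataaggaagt
Ifitm2: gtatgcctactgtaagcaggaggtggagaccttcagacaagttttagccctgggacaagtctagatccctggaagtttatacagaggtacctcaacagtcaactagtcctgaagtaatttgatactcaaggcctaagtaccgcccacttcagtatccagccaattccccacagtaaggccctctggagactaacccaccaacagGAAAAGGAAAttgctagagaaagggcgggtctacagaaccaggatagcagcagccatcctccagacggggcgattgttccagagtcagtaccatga
Ifitm3: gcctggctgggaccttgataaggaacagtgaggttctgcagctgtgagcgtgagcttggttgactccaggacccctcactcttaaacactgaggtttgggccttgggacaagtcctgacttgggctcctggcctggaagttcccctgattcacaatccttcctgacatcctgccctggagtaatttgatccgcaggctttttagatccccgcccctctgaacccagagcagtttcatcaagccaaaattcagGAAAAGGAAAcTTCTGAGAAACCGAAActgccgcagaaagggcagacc
Ifitm2 had 1 ISRE core, 46 to 37 bases before its start. Ifitm3 had 2 ISRE cores, at bases 2 to 11 and 19 to 28 after the start (counted from 0), and 1 GAS at bases 13 to 21 that overlaps the second of them. Neither motif was found in this window of Ifitm1, which lies wholly inside the annotated gene and does not reach its annotated 5′ end. The windows of Ifitm2 and Ifitm3 extend past the annotated 5′ end. Among 32851 mouse start regions of this length, 3.44% held an ISRE core and 8.30% a GAS. The genes resemble one another, with 66.0% of bases identical between the Ifitm2 and Ifitm3 transcripts, 55.4% between Ifitm1 and Ifitm3 and 53.1% between Ifitm1 and Ifitm2. Ifitm2 and Ifitm3 share a run of 69 bases, and 20 of the 606 stretches of 50 bases in Ifitm2 occur in Ifitm3. Sequence alone cannot tell the pair apart in those stretches. Whether they lie near the captured transcript ends, and how their reads were counted, was not examined.

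In CD8 cells, Ifitm1, Ifitm2 and Ifitm3 were abundant at day +7 and close to absent at day +14. Levels are in CPM, and brackets hold 95% intervals that cover counting error only, exact Poisson for a level and exact conditional binomial for a ratio of days. Ifitm1 was at 460 CPM [455, 465] at day +7 and at 16.5 CPM [15.5, 17.5] at day +14. Ifitm2 was at 240 CPM [237, 244] and at 4.71 CPM [4.20, 5.27]. Ifitm3 was at 113 CPM [111, 116] and at 5.26 CPM [4.72, 5.85]. The intervals of the days did not overlap for any of the 3 genes, which were chosen by this contrast, so nothing is read from that. Over all CD8 cells the fold was greatest for Ifitm2, 51.1-fold lower at day +14 [45.6, 57.4], a log2 ratio of -5.67, followed by Ifitm1 at 27.9-fold [26.2, 29.6] and a log2 ratio of -4.80, and by Ifitm3 at 21.5-fold [19.3, 24.0] and a log2 ratio of -4.43. Summed, the genes went from 54058 UMIs (813 CPM) to 1720 UMIs (26.5 CPM), 30.7-fold lower [29.3, 32.3].

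With 1 CPM added to both levels, Ifitm2, Ifitm1 and Ifitm3 had the 3 lowest log2 ratios, -5.40, -4.72 and -4.19, of the 6825 genes that averaged 10 CPM or more in CD8 cells, where the median was 0.18. Of those genes, 95 (1.39%) were more than 2-fold lower and 123 (1.8%) more than 2-fold higher at day +14, the only call possible with 1 library a day. The choice of the 3 genes used this contrast, so nothing is read from their place in it.

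Summed over cells, all 3 genes were at a higher level in CD4 than in CD8 cells at day +7, with a different balance at day +14. For Ifitm1 at day +7 this level rests on few cells, since 45 of 441 thinned CD4 cells held 87.3% of its UMIs. The intervals do not cover that spread between cells. Ifitm1 was at 685 CPM [662, 709] at day +7 and at 5.45 CPM [3.59, 7.93] at day +14, from 3189 and 27 UMIs. Ifitm2 was at 643 CPM [620, 666] and at 47.2 CPM [41.4, 53.7]. Ifitm3 was at 503 CPM [482, 523] and at 33.1 CPM [28.2, 38.6]. Ifitm1 was thus 126-fold lower at day +14 [86.3, 191], whereas Ifitm2 was 13.6-fold lower [11.9, 15.6] and Ifitm3 15.2-fold lower [13.0, 17.9]. The day +14 UMIs of Ifitm1 lay in 7 of 690 cells, and the genes were chosen by this contrast, so nothing is read from these intervals. With few UMIs at day +14 the Ifitm1 value moved, from a log2 ratio of -6.97 to -8.20 [-9.82, -6.97] after thinning to 4000 UMIs per cell (5 UMIs at day +14) and to -6.38 as a mean per cell. On the scale with 1 CPM added, Ifitm1, Ifitm3 and Ifitm2 stood at places 1, 4 and 6 from the lowest of 6978 genes, of which 1.15% were more than 2-fold lower.

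In the Foxp3+ gate the 3 genes were lower at day +14 as well, by less. Ifitm1 was at 469 CPM [443, 495] at day +7 and at 56.3 CPM [42.9, 72.7] at day +14. Ifitm2 was at 293 CPM [273, 314] and at 45.8 CPM [33.8, 60.8], and Ifitm3 at 191 CPM [174, 208] and at 52.5 CPM [39.6, 68.3]. The summed level was 6.16-fold lower [5.25, 7.26], against a background of 0.974% of 6984 genes more than 2-fold lower in this gate. For 2 of the genes the ratio came under 2-fold in part of the cells, with Ifitm2 going from -2.68 to -0.81 [-1.48, -0.19] without cycling cells, and Ifitm3 from -1.86 to -0.75 [-1.46, -0.11] without cycling cells and -0.85 [-1.32, -0.40] with stricter gates, on the log2 scale. Most of these cells had Cd8 transcripts, and in the 138 and 35 cells with Cd8a or Cd8b1 and no Cd4 the summed level was 831 CPM [791, 871] and 134 CPM [104, 169]. In the 19 and 14 cells with Cd4 and no Cd8a or Cd8b1 it was 2138 CPM [1939, 2352] and 493 CPM [360, 660]. The CD4 gate had 1830 and 85.8 CPM, and no order is read from so few cells, because the intervals do not cover the spread between cells. Ifitm1 had no UMI in those 14 cells at day +14, which allows a level of up to 32.9 CPM (3 counts), while Ifitm2 had 26 UMIs and Ifitm3 had 19.

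Ifitm3 was the leading gene in neutrophil-gate and erythroid-gate cells, and it kept much of its level at day +14. Neutrophil-gate cells had 2320 CPM [2215, 2429] of Ifitm3 at day +7 and 1313 CPM [1236, 1394] at day +14. They had 750 CPM [691, 813] and 277 CPM [242, 315] of Ifitm2, and 387 CPM [344, 433] and 121 CPM [98.6, 148] of Ifitm1. Ifitm3 was 1.77-fold lower at day +14 [1.64, 1.91], Ifitm2 2.71-fold [2.32, 3.17] and Ifitm1 3.19-fold [2.53, 4.04], so the most abundant of the 3 differed least. The size for Ifitm1 depended on the processing, with a log2 ratio of -1.67 as summed, -3.74 [-4.58, -2.99] after thinning to 4000 UMIs per cell, -4.38 without cycling cells, -2.33 without the highest doublet scores and -1.05 as a mean per cell, and Ifitm2 went from -1.44 to -2.18 [-2.58, -1.80] after thinning. The 2-fold limit was passed by 2 of the 3 genes here and by 2.27% of the 6468 genes measured in this gate. Without the cells that had a UMI of a T cell gene, the summed log2 ratio was -0.73 in place of -1.01.

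Erythroid-gate cells had 531 CPM [510, 551] of Ifitm3 at day +7 and 595 CPM [482, 727] at day +14, intervals that overlap. Ifitm2 was at 197 CPM [185, 210] and 99.2 CPM [56.7, 161], a log2 ratio of -0.99 that became -2.46 as a mean per cell and -1.89 after thinning. Ifitm1 was at 123 CPM [113, 133] at day +7 and had 1 UMI at day +14, a ratio of 19.9-fold with an interval from 3.55 to 786. The log2 ratio of Ifitm3 was 0.17 [-0.14, 0.46], and this was the only one of the 5 gates in which it did not lie below 0. The gate differed in depth between days, with medians of 36449 and 4039 UMIs per cell, and 1 of the 3 genes and 9.21% of all 6905 genes were more than 2-fold lower on the scale with 1 CPM added. In cells with no UMI of a T cell gene, 51 at day +7 and 12 at day +14, the summed log2 ratio was -0.0028 against -0.28 in all cells of the gate.

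**Figure D1:**
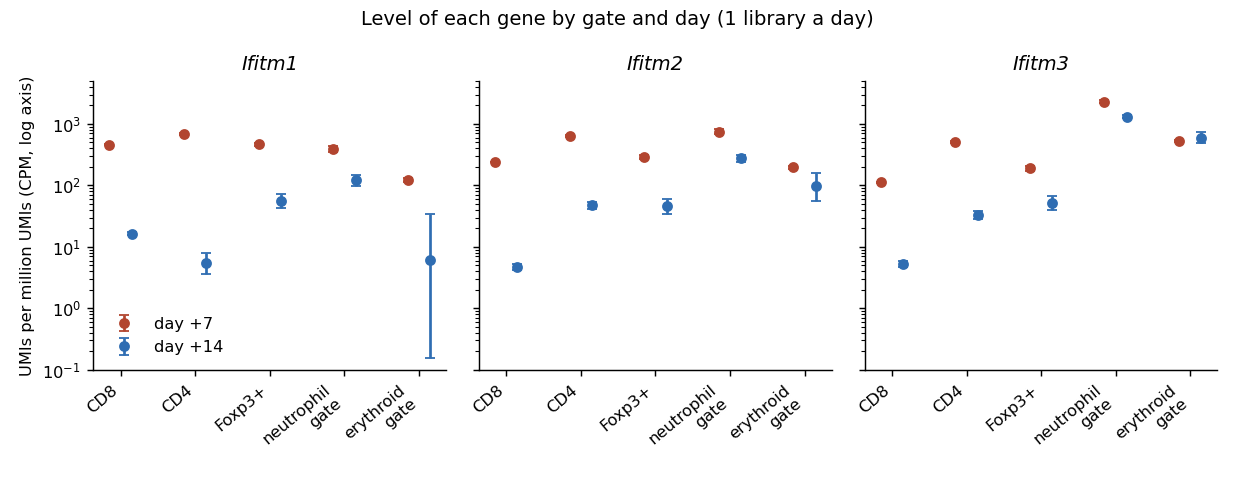
Level of Ifitm1, Ifitm2 and Ifitm3 (CPM, log axis) in the 5 gates at day +7 (red) and day +14 (blue), 1 library a day, with exact Poisson 95% intervals as bars. In CD8 and CD4 cells every day +14 point lies more than 10-fold under its day +7 point, whereas Ifitm3 in the erythroid gate is at 531 and 595 CPM with overlapping intervals.

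Over the 10 combinations of gate and day, each gene had its own order. Ifitm1 was highest in CD4 cells at day +7 (685 CPM), then in Foxp3+ cells (469 CPM) and CD8 cells (460 CPM) of that day, which did not differ beyond counting error, then in neutrophil-gate cells (387 CPM). Its lowest places, CD8 at 16.5 CPM, erythroid gate at 6.20 CPM and CD4 at 5.45 CPM, all at day +14, had overlapping intervals between neighbours in the order. Ifitm2 was highest in neutrophil-gate cells at day +7 (750 CPM), then in CD4 cells of that day (643 CPM), and lowest in CD8 cells at day +14 (4.71 CPM). Ifitm3 was highest in neutrophil-gate cells at day +7 (2320 CPM) and day +14 (1313 CPM), followed by the erythroid gate at day +14 and day +7 and CD4 cells at day +7, 3 neighbours whose intervals overlapped in turn. Over the 10 points Pearson's r of the levels was 0.87 between Ifitm2 and Ifitm3, 0.75 between Ifitm1 and Ifitm2 and 0.47 between Ifitm1 and Ifitm3, on log2 values with 1 CPM added, as a description of points that share 2 libraries.

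The gates were next set against CD8 cells of the same library. At day +7, CD4 cells had 4.44-fold more Ifitm3 [4.24, 4.65], 2.67-fold more Ifitm2 [2.57, 2.78] and 1.49-fold more Ifitm1 [1.44, 1.55] than CD8 cells, and 1.35% of 6597 genes were more than 2-fold higher in CD4 cells. The ratio of Ifitm1 is not read as a difference between cells of the gates, because few cells held most of its UMIs. Neutrophil-gate cells had 20.5-fold more Ifitm3 [19.5, 21.6] and 3.12-fold more Ifitm2 [2.87, 3.39] but 0.841 times the Ifitm1 [0.749, 0.941] of CD8 cells, in a comparison where 11.8% of 6626 genes were more than 2-fold higher. Erythroid-gate cells had 4.69-fold more Ifitm3 [4.48, 4.91] and 0.268 times the Ifitm1 [0.247, 0.291], where 13.2% of 6809 genes were more than 2-fold higher. At day +14 the contrast was wider, since Ifitm3 was 250-fold higher in neutrophil-gate cells [221, 283] and 113-fold higher in erythroid-gate cells [89.2, 142] than in CD8 cells. CD4 cells then had 10.03-fold more Ifitm2 [8.42, 11.9] and 6.29-fold more Ifitm3 [5.19, 7.60] than CD8 cells but 0.330 times the Ifitm1 [0.217, 0.483].

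UMIs count captured transcript ends, so the genes can be set side by side without a correction for length, apart from differences in capture. In CD8 cells Ifitm1 gave 56.5% of the summed UMIs at day +7 and 62.3% at day +14, and Ifitm3 gave 13.9% and 19.9%. In CD4 cells the share of Ifitm1 went from 37.4% at day +7 to 6.35% at day +14, and Ifitm2 became the most abundant of the 3 with 55.1%. In neutrophil-gate cells Ifitm3 gave 67.1% and 76.7%, and in erythroid-gate cells 62.4% and 85.0%. CD8 cells were thus the one gate in which Ifitm1 gave more UMIs than the other two together at both days.

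**Figure D2:**
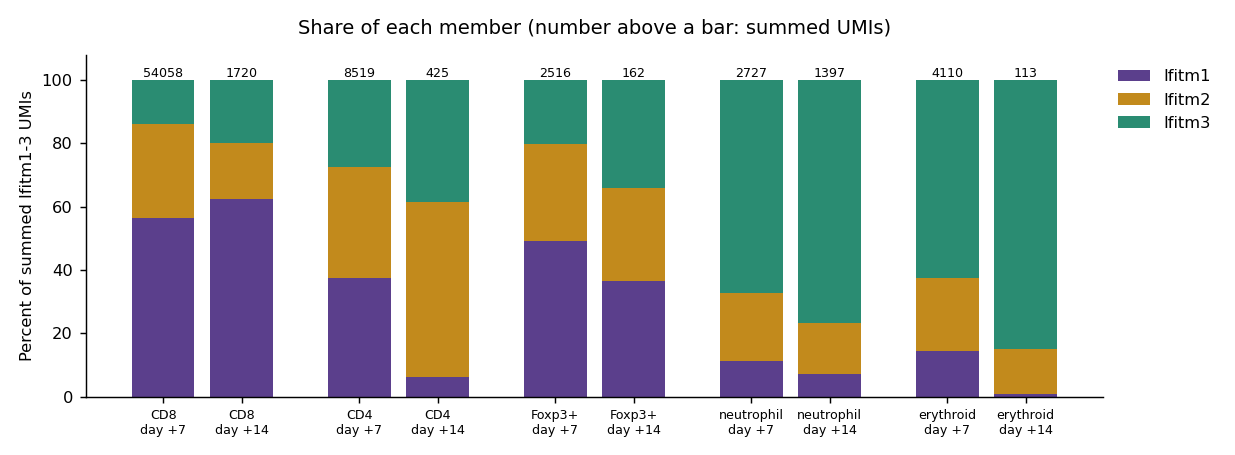
Percent of the summed UMIs of the 3 genes that came from Ifitm1, Ifitm2 and Ifitm3, by gate and day, with the summed UMIs above each bar. Ifitm1 leads in CD8 cells, goes from 37.4% to 6.35% in CD4 cells, and Ifitm3 leads in the neutrophil and erythroid gates.

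The distribution per cell was compared after each cell had been thinned to 4000 UMIs, which left out 98 and 480 shallower CD8 cells. Of the remaining 5641 CD8 cells at day +7, 44.4% [43.1, 45.7] had at least 1 UMI of any of the 3 genes (55.7% before thinning), with 31.6% for Ifitm2, 22.6% for Ifitm1 and 20.3% for Ifitm3. At day +14, 3.06% [2.62, 3.55] of 5426 cells had one (5.89% before thinning), with 1.46% for Ifitm2, 1.09% for Ifitm1 and 1.14% for Ifitm3. Ifitm1 was thus the most abundant gene in CD8 cells at day +7, yet Ifitm2 was detected in the most cells. In CD4 cells at day +7 Ifitm1 was detected in 22.0% of cells, near its share in CD8 cells, but Ifitm2 in 48.3% and Ifitm3 in 43.8%. At day +14 those CD4 shares were 0.815%, 10.8% and 7.13% (1.01%, 13.0% and 9.13% before thinning).

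Droplets also catch free RNA. S100a8, a neutrophil gene that T cells should lack, was detected in 2.96% of thinned CD8 cells at day +7 and in 6.21% at day +14, with median depths of 9197 and 8565.5 UMIs before thinning. The day +14 shares of Ifitm1, Ifitm2 and Ifitm3 in CD8 cells lie under that level. Single UMIs there are not read as expression, because free RNA from cells other than neutrophils was not measured. At day +14 neutrophil-gate cells had 102795 CPM of S100a8 against 121 to 1313 CPM of the 3 genes. The S100a8 share therefore sets no floor for them. In CD4 cells at day +14 the share with S100a8 was 5.09% [3.32, 7.42], above that of Ifitm1 but below those of Ifitm2 and Ifitm3, the latter within its interval. At the ratio that neutrophil-gate cells had, the S100a8 found in CD8 cells would bring along 0.0269 CPM of Ifitm1, 0.00586% of what was measured at day +7, and 0.193 CPM of Ifitm3, 3.68% of what was measured at day +14. For Ifitm1 and Ifitm2 in CD8 cells at day +14 it would bring along 0.108% and 0.866% of what was measured. RNA from other sources was not tested.

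The signal was spread very unevenly between cells. Of the day +7 CD8 cells, 77.4% had no Ifitm1 after thinning, where a Poisson spread around the same mean would leave 10.4% at 0, and the variance was 24.3 times the mean. The cell at the 90th percentile had 6 UMIs of Ifitm1, the one at the 99th had 40 and the highest had 107. The 406 cells (7.20%) with 10 or more UMIs held 77.7% of all Ifitm1. Ifitm1 was therefore at 0 in most cells and very high in a few, while Ifitm2 and Ifitm3 were less extreme. Ifitm2 had 68.4% of cells at 0, 10 UMIs at the 99th percentile, at most 25 UMIs and a variance of 4.80 times the mean, and Ifitm3 had 79.7% at 0, at most 21 UMIs and a variance of 4.23 times the mean. The 10% of cells with the most held 87.2% of the Ifitm1, 64.9% of the Ifitm2 and 78.6% of the Ifitm3 UMIs.

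At day +14 the few CD8 cells with these genes included some with high counts. Ifitm1 was at 0 in 98.9% of cells, and 11 cells with 10 or more UMIs held 67.1% of it, with a highest count of 48. For the 3 genes together, 1473 cells (26.1%) had 3 or more UMIs at day +7 and 41 cells (0.756%) at day +14. Cells with 10 or more numbered 623 (11.0%) and 14 (0.258%), and these held 73.0% and 55.5% of the summed UMIs.

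In CD4 cells at day +7 the spread of Ifitm1 was like that in CD8 cells, with 78.0% of cells at 0, a highest count of 113 and 87.3% of UMIs in the top 10% of cells, while Ifitm2 and Ifitm3 were at 0 in 51.7% and 56.2%. The 105 CD4 cells (23.8%) with 10 or more summed UMIs held 84.1% of the signal. Neutrophil-gate cells had Ifitm3 broadly, with a median of 12 UMIs at day +7 and 6 at day +14 after thinning. Erythroid-gate cells at day +7 had Ifitm3 broadly as well, with a median of 2, a highest count of 9 and 23.6% at 0 against 10.8% under a Poisson spread. Ifitm1 was uneven in neutrophil-gate cells of day +7 too, where 63.4% of 41 cells had none against 2.23% under a Poisson spread, and the variance was 31.8 times the mean.

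**Figure D3:**
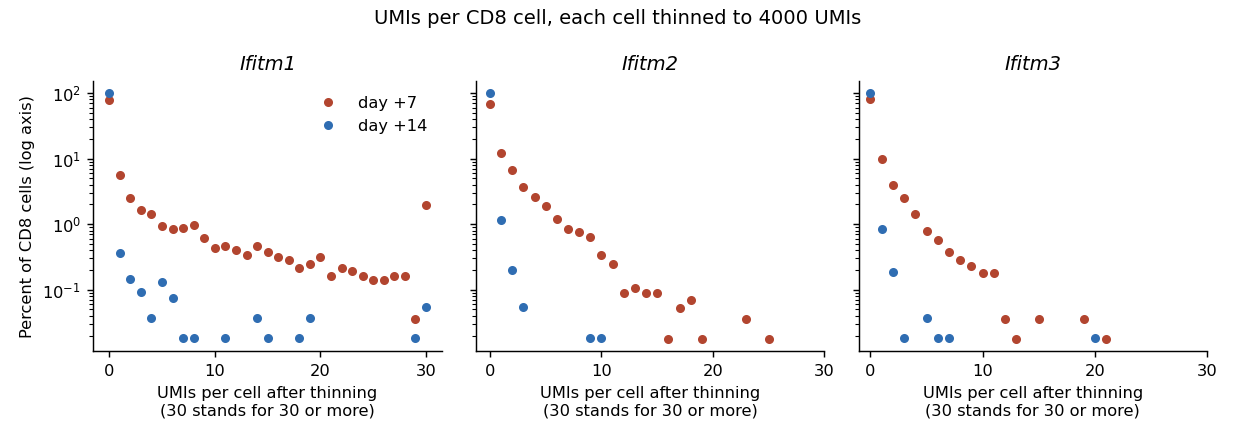
Percent of CD8 cells (log axis) with each number of Ifitm1, Ifitm2 or Ifitm3 UMIs after thinning to 4000 UMIs per cell, at day +7 (red) and day +14 (blue), with counts that no cell had left out and the last point holding 30 or more. At day +7 Ifitm1 reaches past 30 UMIs, up to 107, whereas Ifitm2 and Ifitm3 end at 25 and 21.

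Each of the 3 genes was detected more often in CD8 cells that had another of them than in cells that did not. Of thinned CD8 cells at day +7, 443 (7.85%) had all 3, 11.6% had Ifitm2 alone, 5.99% Ifitm1 alone and 4.50% Ifitm3 alone. Cells with Ifitm1 had Ifitm2 in 63.4% of cases [60.7, 66.0], against 22.3% [21.1, 23.6] of cells without Ifitm1. For Ifitm3 the shares were 44.9% [42.1, 47.6] with Ifitm1 and 13.2% [12.2, 14.2] without it. Of the 375 cells with at least 3 UMIs of Ifitm3, 83.2% had Ifitm2. Pearson's r across cells, on log counts after thinning, was 0.47 for Ifitm1 with Ifitm2, 0.44 for Ifitm1 with Ifitm3 and 0.46 for Ifitm2 with Ifitm3, over 5641 cells of 1 library.

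In CD4 cells Ifitm1 was nested within Ifitm2. At day +7, 92.8% [85.7, 97.0] of the 97 CD4 cells with Ifitm1 had Ifitm2, against 35.8% [30.7, 41.1] of cells without it. Ifitm1 was found in 42.3% of CD4 cells with Ifitm2 and in 3.07% of those without it, and only 1.13% of CD4 cells had Ifitm1 alone. All 3 genes were found in 17.2% of CD4 cells, and Ifitm2 with Ifitm3 but no Ifitm1 in 18.4%. At day +14, 4 of 5426 CD8 cells and 2 of 491 CD4 cells had all 3.

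Cells were next split by the number of 10 cycling genes (Mki67, Top2a, Birc5 and others) with a UMI after thinning. In CD8 cells at day +7 Ifitm1 was at 923 CPM [901, 947] in the 950 cells with none of the 10, at 731 CPM [714, 747] in the 1331 cells with 1 to 2 and at 334 CPM [329, 339] in the 3360 cells with 3 or more. Ifitm2 changed little, with 274, 270 and 230 CPM, and Ifitm3 had 170, 152 and 96.9 CPM. Cycling cells were deeper, with a median of 12612.5 UMIs against 6627.5. After thinning, Ifitm1 was detected in 26.1% [23.3, 29.0], 23.1% [20.8, 25.4] and 21.4% [20.1, 22.9] of these cells, so the share of cells differed far less than the level, and the shares with any of the 3 genes were 42.0%, 42.8% and 45.7%. The day ratio was below 0 in every state: the summed log2 ratio was -4.39 [-4.54, -4.23] with no cycling gene, -4.50 [-4.64, -4.36] with 1 to 2 and -5.66 [-5.77, -5.55] with 3 or more. In the cells with no cycling gene Ifitm1 was 23.2-fold lower at day +14 [20.3, 26.7], Ifitm2 22.5-fold [17.6, 29.1] and Ifitm3 12.6-fold [9.97, 16.2], so the lead of Ifitm2 seen over all CD8 cells was not found there. In CD4 cells the 3 states gave summed log2 ratios of -4.45, -4.48 and -4.60, with overlapping intervals.

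**Figure D4:**
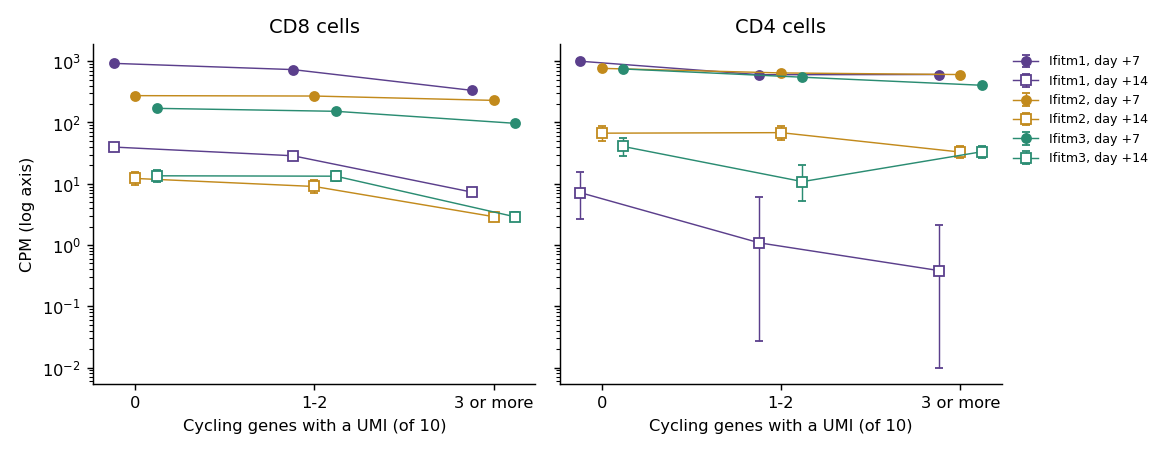
Level (CPM, log axis) of Ifitm1, Ifitm2 and Ifitm3 in CD8 cells and CD4 cells by the number of 10 cycling genes with a UMI, at day +7 (filled) and day +14 (open), with exact Poisson 95% intervals as bars. In CD8 cells Ifitm1 goes from 923 to 334 CPM at day +7 as cycling genes are added, and each day +14 point lies below its day +7 point in every state.

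Genes of the interferon pathway were next compared between the days, first in CD8 cells. Ratios of list genes are log2 ratios with 1 CPM added, for genes at 20 CPM or more at either day, and over all 5250 such genes in CD8 cells 97 (1.85%) were more than 2-fold higher, 84 (1.60%) more than 2-fold lower, and the median was 0.16. Of 28 type I interferon response genes (27 in the tables), 13 were used and none was past 2-fold, with a median of -0.10. Ifit1, Ifit3, Irf7, Usp18, Rsad2, Oasl2, Isg20 and Rtp4 were among those under the limit in CD8 cells, so these values do not cover them. Parp14 (0.66) and Trim30a (0.36) were among the highest, and Bst2, which tethers budding viruses, had the lowest ratio, with 113 and 91.7 CPM (-0.29), after Ifi27l2a (-0.28) and Xaf1 (-0.24). Of 26 interferon gamma response genes, 11 were used and none was past 2-fold, with a median of 0.49. Ifi47 (0.94), Nlrc5, an activator of MHC class I genes (0.91), and the peptide transporter gene Tap1 (0.68) stood highest, and Socs1, an inhibitor of JAK kinases (-0.14), Psmb8 (-0.09) and Psmb9 (0.13), both of the immunoproteasome, lowest.

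Of 9 ligand, receptor and kinase genes of the pathway, 7 were used and none was past 2-fold, with a median of 0.18. Ifng, the gene of interferon gamma, had 177 CPM and then 158 CPM (-0.16), and its receptor gene Ifngr1 at 295 and 270 CPM (-0.13). The type I receptor genes Ifnar2 and Ifnar1 had ratios of 0.90 and 0.59, and the kinase genes Tyk2 and Jak1 of 0.50 and 0.13. Ifnb1 and Ifngr2 were below the 20 CPM limit.

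Of 10 genes whose products bind or modify IFITM proteins, 7 were used, 1 was more than 2-fold higher and none lower, with a median of 0.30. The one past 2-fold was Nedd4, a ubiquitin ligase that marks IFITM3 for degradation, with 19.3 CPM at day +7 and 42.2 CPM at day +14 (1.09). Zdhhc20, which adds palmitate to IFITM3, had a ratio of 0.72 and Vcp, an unfolding ATPase, of 0.36, while Cd9, a tetraspanin gene (-0.45), Vapa (0.14) and Ap2m1 (0.24) had the lowest. In CD4 cells Cd81 went from 14.8 to 118 CPM (2.91) while Ifitm1 went from 685 to 5.45 CPM. Of 10 other virus restriction factors, 7 were used in CD8 cells and none was past 2-fold, with a median of -0.20. The highest were Eif2ak2 (0.75), Trim25 (0.46) and Apobec3 (0.23), and the lowest Bst2 (-0.29), Serinc3 (-0.25) and Ly6e (-0.24).

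Genes of T cell state moved more. Of 11 naive and memory genes, 8 were used and 2 were more than 2-fold lower, Il7r, the interleukin-7 receptor, with 48.4 and 8.28 CPM (-2.41) and S1pr1, a receptor for exit from lymphoid tissue, with 103 and 43.7 CPM (-1.21). Klf2, a regulator of S1pr1, followed with -0.71, the highest were Bcl2 (0.37), Lef1 (0.18) and Cxcr3 (-0.01), and the median was -0.16. Of 15 effector and exhaustion genes, 14 were used, 3 were more than 2-fold higher and 2 more than 2-fold lower, with a median of 0.26. Eomes (2.02), Tox (1.69), both transcription factors of exhausted cells, and the chemokine gene Ccl5 (1.30) were higher, and the granzyme genes Gzma, with 3921 and 265 CPM (-3.88), and Gzmb (-1.43) were lower, with Tbx21 at -0.56.

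In CD4 cells 16 of 28 type I interferon response genes were used, 1 more than 2-fold higher and 1 more than 2-fold lower (Isg15, -1.18), with a median of 0.06. Of 26 interferon gamma response genes 16 were used, 5 more than 2-fold higher (Iigp1 2.20, Cxcl10 1.79, Nlrc5 1.28, Gbp6 1.24 and Tap1 1.12) and none lower, with a median of 0.61. Over all 5437 genes used in CD4 cells, 3.60% were more than 2-fold higher, 1.32% more than 2-fold lower, and the median was 0.14. Ifitm1, Ifitm2 and Ifitm3 were far lower at day +14 in CD4 cells. The list medians of 0.06 and 0.61 compare with 0.14 over all genes. In the neutrophil gate 25 of 28 type I interferon response genes were used, 9 higher and 16 lower, with a median of -0.37. Of the interferon gamma response genes 15 were used there, 12 higher and 3 lower, with a median of 0.32. Of all 5102 genes used in that gate, 3233 were higher and 1869 lower, with a median of 0.17. The part of interferon was not tested.

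**Figure D5:**
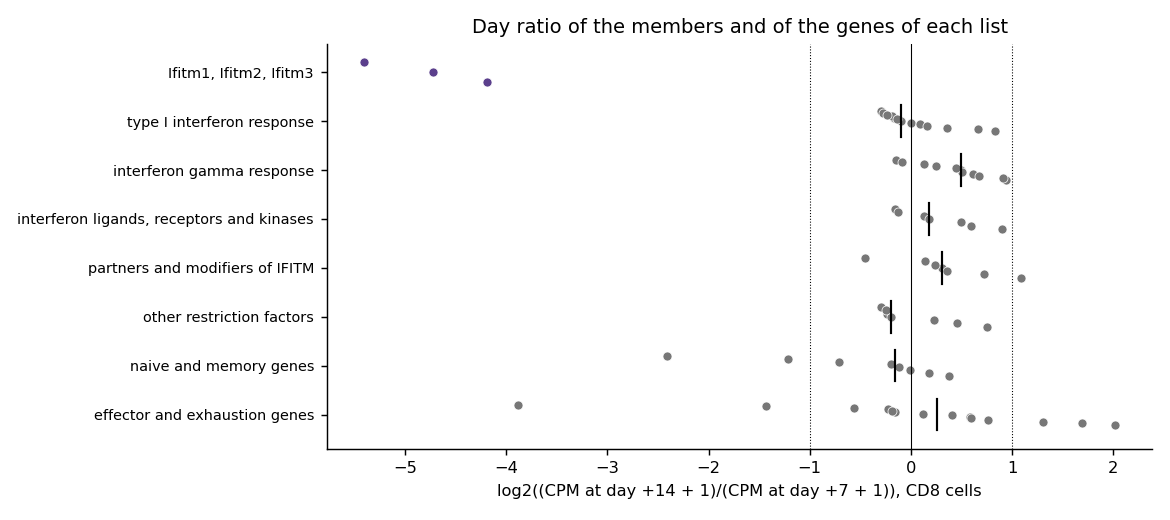
Log2 ratio of day +14 over day +7 in CD8 cells, with 1 CPM added, for Ifitm1, Ifitm2 and Ifitm3 (purple) and for the genes of each list at 20 CPM or more (grey), with the median of each list as a black bar and 2-fold as dotted lines. The members lie between -5.40 and -4.19, and no gene shown from the interferon lists passes 2-fold.

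CD8 cells at day +7 that were rich in the 3 genes were compared with cells that had none. A class cut from a count is a range and not a cell type: 231 cells lay at 8 to 11 summed UMIs, next to the limit of 10. The 623 cells with 10 or more and the 3138 cells with 0 had median depths of 8161 and 8934.5 UMIs. Among 4760 genes at 20 CPM or more, 13 (0.273%) were more than 2-fold higher and 6 (0.126%) more than 2-fold lower in the rich cells, and the median log2 ratio, with 1 CPM added, was -0.05. None of 15 type I interferon response genes used was past 2-fold, with a median of 0.09, and none of 11 interferon gamma response genes, with a median of 0.10. Among naive and memory genes 1 of 8 was past 2-fold, Il7r with 105 CPM in the rich cells and 38.1 CPM in those with none (1.44), and Ly6a had 820 and 535 CPM (0.62). Of 14 effector and exhaustion genes 2 were more than 2-fold lower, Eomes with 3.99 and 30.8 CPM (-2.67) and Tox with 29.8 and 78.3 CPM (-1.36), while Gzma had 5682 and 3864 CPM (0.56). All 10 cycling genes were lower in the rich cells, as were 2860 of all 4760 genes. None of the 10 was past 2-fold, and their median was -0.15. Of 6 ligand, receptor and kinase genes, 6 partner genes and 5 restriction factors used none was past 2-fold, with medians of -0.02, -0.07 and 0.20.

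The genes most like the members across single CD8 cells of day +7, by Pearson's r of log-normalized counts over 5739 cells and 2402 genes at 50 CPM or more, led with AA467197 at an r of 0.42. AA467197 encodes NMES1, a small mitochondrial protein that can take the place of NDUFA4 in cytochrome c oxidase. AA467197 was at 341 CPM in the cells rich in Ifitm1-3 and 88.3 CPM in those with none, and over all CD8 cells it went from 147 CPM at day +7 to 29.9 CPM at day +14, a log2 ratio of -2.26. For the next 9, Id2, Srgn, Klrc1, S100a4, Vim, Cd47, Itgb1, Cxcr6 and Sh3bgrl3, r lay between 0.18 and 0.26, and for the lowest 5, Gzmk, Ndufa4, Sh2d1a, Ccl5 and Tox, between -0.22 and -0.17. In sparse counts correlations of this size are no finding, and the cells share 1 library. The summed Ifitm1-3 value had an r of 0.0268 with the logarithm of depth.

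Over the 10 combinations of gate and day, the genes most like the summed members by Pearson's r of log2 CPM were Oas3 (0.87), Cpd (0.85), Gm42418 (0.84), Lars2 (0.81), Mpc2 (0.80), S100a1 (0.75), Treml2 (0.74), Fcer1g (0.73), Cd47 (0.72) and Zfand2b (0.72). Oas3, a 2'-5' oligoadenylate synthetase induced by interferon, was at 12.3 and 4.82 CPM in CD8 cells at day +7 and day +14 and at 54.5 and 46.6 CPM in neutrophil-gate cells. Fcer1g, the gamma chain of Fc receptors, was at 171 and 18.9 CPM in CD8 cells and at 977 and 919 CPM in neutrophil-gate cells. These genes were chosen by their likeness over the same 10 points, which come from 2 libraries, so their values are a description. Gm42418, whose reads often come from ribosomal RNA, was at 18251 and 5812 CPM in CD8 cells, and its part in the result was not tested, though scaling without it, ribosomal protein genes and mitochondrial genes gave a CD8 ratio of -4.96 for the sum, against -4.94.

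In CD8 cells Ifitm10 had 9.25 CPM [8.53, 10.01] and then 15.6 CPM [14.7, 16.6], a log2 ratio of 0.76, and at 3.44 and 11.9 CPM in CD4 cells. Ifitm6, next to Ifitm3 on the chromosome, was at 2496 CPM [2387, 2609] and 1387 CPM [1307, 1470] in neutrophil-gate cells, intervals that overlap those of Ifitm3, and at 0.196 and 0.400 CPM in CD8 cells. Ifitm5, a bone gene, had 16 UMIs in all kept cells at day +7 and 1 at day +14, and Ifitm7 had 0 and 7. Of the 10 neighbouring genes around the members, 3 were at 10 CPM or more in CD8 cells, with log2 ratios of -0.04 for Psmd13, -0.44 for Pkp3 and 0.14 for Sigirr, and none of these 3 was past 2-fold. Among the neighbours near or under 1 CPM, B4galnt4 had 68 and then 15 UMIs in CD8 cells, a log2 ratio of -2.15 [-3.06, -1.33], and Ifitm5 had 10 and 0.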

How the data were processed

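Single-cell RNA was measured in 2 libraries of sorted splenic donor T cells, 1 per day. The authors deposited filtered matrices of whole UMI counts per gene and barcode, without normalization, made with Cell Ranger 6.1.2 on mm10 per the submitters' processing notes. The strand setting of the counting is not given in the sources used here. Barcodes with 500 to 7500 genes and at most 15% mitochondrial UMIs were kept, the limits of the study, which also left out doublets. Gates used fixed marker genes, in the order neutrophil (at least 3 of 10 genes, at least 1% of UMIs), erythroid and macrophage (at least 3 of 8 genes and 5 UMIs), then T cells (at least 2 of 6 T cell receptor and CD3 genes), split by Foxp3, Cd4, Cd8a and Cd8b1. Levels (CPM) are the UMIs of a gene over all UMIs of the cells in a gate. With 1 library a day nothing was tested, and intervals (exact Poisson, Clopper-Pearson for shares, conditional binomial for ratios, 95%) cover counting error only. To compare cells, each was thinned once to 4000 UMIs with a fixed seed.

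The members and the gene lists were chosen with earlier results of these data known. Named genes were the members, the other Ifitm symbols, the 10 genes most like the members over gates and days, the 10 most and 5 least like across CD8 cells, and the 3 highest and 3 lowest day ratios of each list at 20 CPM or more, apart from 1 gene that is not reported here. Genes that were past 2-fold, or that are named in the comparison of cells rich in the members or in CD4 cells outside this rule, were picked after their values were seen. Scrublet in scanpy 1.11.5 called 0 barcodes in either library and so did not work as a filter. Doublets were kept, and the highest scores, 433 and 518 barcodes, were left out as an alternative. The other alternatives were median-ratio scaling, a mean per cell, a mitochondrial limit of 5%, stricter gates, cells without cycling genes, thinning to 4000 or 2000 UMIs, a total without ribosomal, mitochondrial and Gm42418 UMIs, a pseudocount of 0.1 CPM and limits of 1 and 50 CPM. The calculations were tested on simulated data. Python 3.11.15, numpy 2.4.6, scipy 1.17.1, pandas 2.3.3, scikit-learn 1.9.0 and matplotlib 3.10.9 were used. Start regions and annotation came from RefSeq (GRCm38.p6) and the GRCm38 gene annotation.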

Additional observations from a re-analysis of the deposited data

Results flagged for a closer look

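The 22 and 49 kept cells that passed no gate went the opposite way from CD8 cells between the days, in all 3 genes. Their log2 ratios of day +14 over day +7 were 4.74 for Ifitm1 [2.21, 10.1], 2.44 for Ifitm2 [1.14, 4.10] and 1.15 for Ifitm3 [0.74, 1.59], and 1.52 for the sum [1.14, 1.93], from 62 and 448 UMIs. At day +7, 1 cell held 74.2% of those UMIs, and at day +14 the 5 cells with the most held 69.4%. These cells were shallow, with medians of 1856 and 2019 UMIs, and the neutrophil markers outside the gate (Csf3r, Cebpe, Lyz2, Cybb and Fcnb) stood in them at 4328 and 5508 CPM, with 2 and 5 of the 5 detected, carried by 1 of the 22 cells at day +7 and by 18.4% of the 49 at day +14, and the erythroid markers (Hbb-bs, Hba-a1, Gata1, Tfrc and Blvrb) at 454 and 7396 CPM, with 4 of 5 detected at either day, in 31.8% and 26.5% of the cells. The part of these markers in the result was not tested, and neither was the difference from CD8 cells.

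In erythroid-gate cells Ifitm3 had a ratio of 0.17, above 0, while it was below 0 in CD8 cells. With 1 library a day the difference was not tested, and the interval of the erythroid value reaches from -0.14 to 0.46.

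Barcodes outside the gene and mitochondrial limits, which entered no comparison, also held the 3 genes above the limit that a count of 0 allows. The 176 such barcodes at day +7 had a summed level of 466 CPM [400, 540] and the 249 at day +14 had 86.9 CPM [61.2, 120], at median depths of 900.5 and 1005 UMIs.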

How the results depend on the processing

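Over 20 log2 ratios (3 genes and their sum in 5 gates) and 161 alternatives, no called direction changed: 154 values were below 0, and the 7 above 0 were all of Ifitm3 in the erythroid gate (0.10 to 0.24). In CD8 cells the summed ratio of -4.94 became -5.16 with median-ratio scaling, which lowered every CD8 ratio by 0.22, -4.51 as a mean per cell, -5.05 with stricter gates and -4.39 without cycling cells. In the same order Ifitm1 gave -5.02, -4.28, -4.90 and -4.54, with -4.90 also without the highest Scrublet scores and -4.93 after thinning to 4000 UMIs. Ifitm2 gave -5.89 with median-ratio scaling, -5.37 as a mean per cell and -4.49 without cycling cells, and Ifitm3 -4.64 with median-ratio scaling, -4.61 with stricter gates, -3.66 without cycling cells and -4.63 after thinning. In CD4 cells the summed ratio stayed between -4.52 and -4.33. In Foxp3+ cells it was -2.08 with stricter gates, -1.76 without cycling cells, -2.29 after thinning and -2.12 in cells with Cd4 and no Cd8. In neutrophil-gate cells it was -0.78 as a mean per cell, -0.89 with stricter gates, -1.32 after thinning and -0.73 without T cell genes, and in erythroid-gate cells without T cell genes it was -0.0028. The cause of these shifts was not tested.

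Thinned to 2000 UMIs, 35.9% of CD8 cells at day +7 and 2.03% at day +14 had a UMI of any of the 3 genes. Genes more than 2-fold lower numbered 190 with a limit of 1 CPM and 44 with 50 CPM, against 95 in CD8 cells, because the limit sets how many genes are counted. The same limits gave 197 and 37 against 80 in CD4 cells, 342 and 28 against 68 in Foxp3+ cells, 623 and 41 against 147 in the neutrophil gate and 2117 and 90 against 636 in the erythroid gate. The choices without T cell genes, by Cd4 and Cd8 in Foxp3+ cells, without shared barcodes and without S100a8 were added after the data were seen. Some alternatives in small gates left too few cells or UMIs for a ratio and gave no value. No paired analysis was possible because each day has 1 library. Depth limits the erythroid gate at day +14 most, with 21 cells and 161297 UMIs.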

Other observations

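The gate for macrophage genes (C1qa, C1qb, C1qc, Csf1r, Adgre1, Cd5l, Vcam1 and Slc40a1; 127 and 96 cells) entered no comparison above. Ifitm1, Ifitm2 and Ifitm3 summed to 962 CPM [916, 1010] at day +7 and were 7.89-fold lower [6.73, 9.30] with 122 CPM [104, 142] at day +14. Ifitm1 had 388 CPM and then 2 UMIs, a ratio of 269-fold with an interval from 74.2 to 2227, while Ifitm3 was at 256 and 71.4 CPM. A UMI of a T cell receptor or CD3 gene was present in 81.9% and 90.6% of these cells, and the part of T cell RNA in the result was not tested.

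T cells with UMIs of both Cd4 and Cd8 or of neither (462 and 867 cells) summed to 1632 CPM at day +7 and to 78.1 CPM at day +14, 20.9-fold lower [19.4, 22.5]. Ifitm1 was 65.8-fold lower, Ifitm2 20.2-fold and Ifitm3 8.50-fold, so that Ifitm1 differed most here, as in CD4 cells.

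The CD8 cells with the highest Scrublet scores had 881 CPM at day +7 and 37.2 CPM at day +14, against 806 and 25.3 CPM in the other CD8 cells, so the difference between days was present in both.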
